A study of Mus musculus with 12 samples.

Results

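The genes described here are 10 genes of cellular fuel and insulin signalling: the transcription factors Foxo1 and Foxo3, their reported targets Irs2, Pdk4, Klf15, Sesn1, Sesn3 and Ccng2, and the α-arrestins Txnip and Arrdc4. They were taken by symbol from a table of 25514 genes, each standing for its most counted transcript over all libraries, and 9 of the 10 passed the filter on low counts, which left 12971 genes to be tested. Pdk4 was the gene that did not pass. RNA was sequenced from conditionally immortalized PT (proximal tubule) cells in 4 groups of 3 libraries, namely TβRII flox/flox PT cells and TβRII-/- PT cells (flox/flox cells and TβRII-/- cells hereafter, genotypes H2ts6;Tgfbr2fl/fl and H2ts6;Tgfbr2-/- in the labels), each untreated or given H2O2 in serum-free medium (SFM) for 24 h. All cells came from male mice crossed with the Immorto-mouse and carry its temperature-sensitive T antigen, grew at 33 °C, and were moved to 37 °C without IFNγ 5 days before the experiment. TβRII-/- PT cells were made from TβRII flox/flox PT cells with adeno-Cre in culture, so loss of TβRII cannot be told apart from whatever else sets this pair of lines apart. Untreated cells stayed in complete medium, which held insulin, hydrocortisone, triiodothyronine, selenium and transferrin beside fetal bovine serum at 2.5%. The study's methods also describe serum starvation for 24 h ahead of H2O2, which the labels do not mention. No group had serum withdrawn without H2O2, so their effects cannot be told apart, and the sources used here do not state whether the serum-free medium kept insulin or hydrocortisone. The labels give the H2O2 dose as 200 mM whereas the study's methods give the same figure in micromolar units.

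FoxO transcription factors are held in the cytoplasm when insulin or growth factors activate Akt, which phosphorylates them, and they enter the nucleus when that signal is withdrawn. Their reported targets include the insulin receptor adaptor Irs2, the pyruvate dehydrogenase kinase Pdk4, the sestrins and the cell cycle inhibitor Ccng2. Txnip and Arrdc4 are α-arrestins that reduce glucose uptake, and both are induced by the glucose-sensing factor MondoA with its partner Mlx, which binds paired E-box-like elements in their promoters. In the kidney, insulin signalling restrains gluconeogenesis in proximal tubule cells, and Txnip is known for its induction by glucose in these cells.

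The promoters of 4 of these genes are shown, those with a match to an E-box or to a pair of E-box-like elements. Only 1 of them, Txnip, held the paired element in the exact form searched, and the others held single E-boxes. Less exact pairs were not searched, so their presence in Arrdc4 or the other genes was not tested. All 10 genes were found in the RefSeq promoter table (GRCm38.p6), with 11 promoters since Sesn1 has a pair of starts, and each promoter covered 250 bases before and 50 after a start. Only the 250 bases before the start are printed, 5′ to 3′ on the strand of the gene, with matches to the searched motifs in capitals. They lie at chr3:96557707-96557956 (+ strand, Txnip), chr7:68749239-68749488 (- strand, Arrdc4), chr8:11008930-11009179 (- strand, Irs2) and chr6:90462326-90462575 (+ strand, Klf15).
Txnip: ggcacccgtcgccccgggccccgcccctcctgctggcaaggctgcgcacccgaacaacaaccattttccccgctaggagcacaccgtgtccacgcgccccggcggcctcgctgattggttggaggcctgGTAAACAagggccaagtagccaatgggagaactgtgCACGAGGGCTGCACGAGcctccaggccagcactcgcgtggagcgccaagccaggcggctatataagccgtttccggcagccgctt
Arrdc4: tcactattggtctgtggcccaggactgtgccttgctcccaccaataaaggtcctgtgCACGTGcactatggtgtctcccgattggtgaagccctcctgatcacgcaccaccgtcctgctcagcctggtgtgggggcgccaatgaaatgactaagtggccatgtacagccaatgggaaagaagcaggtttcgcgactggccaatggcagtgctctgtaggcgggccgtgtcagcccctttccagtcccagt
Irs2: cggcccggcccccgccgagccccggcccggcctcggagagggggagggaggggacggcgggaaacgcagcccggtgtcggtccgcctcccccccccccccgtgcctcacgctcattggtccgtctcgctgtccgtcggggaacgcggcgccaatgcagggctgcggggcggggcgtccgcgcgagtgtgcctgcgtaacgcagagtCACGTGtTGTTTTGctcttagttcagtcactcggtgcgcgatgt
Klf15: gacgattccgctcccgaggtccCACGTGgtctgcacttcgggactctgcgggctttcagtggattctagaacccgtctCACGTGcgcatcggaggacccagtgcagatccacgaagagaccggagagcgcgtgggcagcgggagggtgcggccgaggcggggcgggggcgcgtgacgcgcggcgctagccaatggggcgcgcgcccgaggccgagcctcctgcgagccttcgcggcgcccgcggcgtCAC
Both strands were searched for GTAAACA (a FoxO binding element), TGTTTTG (an insulin response sequence), CACGTG (an E-box) and a pair of CACGNG with 5 bases between them (the carbohydrate response type). In Txnip the capitals mark GTAAACA, which begins at position -121 from the start, and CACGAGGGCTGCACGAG, a match to the paired motif that begins at -85. In Arrdc4 they mark an E-box at -193, and in Irs2 an E-box at -44 followed at -37 by TGTTTTG. In Klf15 they mark E-boxes at -228 and -172, and the first bases of another that begins at -3 and crosses the start. This start lies inside the span given for Klf15 (90461043-90491803), and the bases before that span were not searched. Outside these 4 genes, GTAAACA was matched on the reverse strand at position 23 of Sesn1, after its start, and TGTTTTG on the reverse strand at -16 of Ccng2. Of 32851 promoters of the same length in the table, 3.65% held GTAAACA, 6.28% TGTTTTG, 7.15% CACGTG and 0.0487%, or 16 promoters, the paired motif. A match is a description of these letters and not a measured binding site.

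The gene counts summed to between 15870155 and 20857618 per library, and normalized counts refer to the mean effective library, of 17351835 counts. The first principal component held 80.4% of the variance and separated the genotypes, and the next held 8.56% and separated treated from untreated libraries. Tgfbr2, the gene of TβRII, was counted in every library, between 7032 and 8791 counts in untreated and 11960 and 13474 in H2O2-treated flox/flox cells, and between 6485 and 6895 in untreated and 7156 and 9299 in H2O2-treated TβRII-/- cells. These counts cover the whole transcript and do not check the deleted part. Of 12 proximal tubule markers, the transporter genes Slc34a1 and Slc22a6 and the factor Hnf4a had at most 2 counts in any library, whereas Lrp2 reached 19333 and Pax8 7093. The summed normalized count of these markers was 30875 to 36661 in untreated and 37774 to 40572 in H2O2-treated flox/flox cells, and 23713 to 25273 and 24433 to 25784 in TβRII-/- cells. Lrp2, Aqp1 and Pax8 had the highest counts among them, and the sum does not describe each marker. Of the 8 tested, 1 rose and 3 fell with H2O2 in flox/flox cells (adjusted p under 0.05 in edgeR, median log2 fold change -0.17). Beside them, 21% of all genes rose and 20.5% fell. In TβRII-/- cells 1 rose and 0 fell, beside 20.5% and 19.1% of all genes. Between genotypes, 1 of the 8 was higher and 7 were lower in untreated TβRII-/- cells (median log2 fold change -0.88), beside 33.3% and 31.4% of all genes. With H2O2, 2 were higher and 6 lower in TβRII-/- cells (median -1.15), beside 35.1% and 31.3%. Markers of other cells were low for 7 distal nephron genes (at most 64.6 summed normalized counts, with Aqp2, Calb1 and Atp6v1g3 at 0) and 5 fibroblast genes (at most 26.4, with Lum and Thy1 at 0). Of 5 macrophage genes, which summed to between 906 and 1165 in all libraries, Csf1r and Cd68 made up nearly all, and Adgre1 was at 0. Of 4 endothelial genes, Kdr fell with H2O2 in both genotypes, and their sum went from 127 to 138 down to 22.7 to 26.4 in flox/flox cells and from 464 to 586 down to 39.3 to 62.6 in TβRII-/- cells, while Pecam1 had at most 1 count. The part of these markers in the results was not tested.

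To ask how FoxO targets and α-arrestins responded to H2O2 in serum-free medium, treated and untreated cells were compared within each genotype. Irs2, Sesn3 and Txnip rose in both genotypes, by 1.19-fold to 1.54-fold. Foxo1 also rose in flox/flox cells, and Klf15 fell 2.15-fold in TβRII-/- cells. Of the 9 genes tested, 4 rose and 0 fell in flox/flox cells, and 3 rose and 1 fell in TβRII-/- cells (edgeR's quasi-likelihood test, Benjamini-Hochberg adjusted p under 0.05 over all genes tested). Over all genes tested, 41.6% passed in flox/flox cells (21% higher, 20.5% lower) and 39.6% in TβRII-/- cells (20.5% higher, 19.1% lower), so the share of these genes that passed was near that of all genes. With a fold of at least 1.5 added, none of the 9 passed in flox/flox cells, where 8.24% of all genes did (5.68% higher, 2.56% lower), and Sesn3 and Klf15 passed in TβRII-/- cells, where 8.33% did (4.56% higher, 3.76% lower). The median log2 fold change of the 9 genes was 0.15 in flox/flox cells and 0.12 in TβRII-/- cells, beside 0.01 and 0.02 for all genes tested. Untreated and treated libraries did not overlap for 4 of the 9 genes in flox/flox cells and for 6 in TβRII-/- cells, beside 47.4% and 52.1% of all genes tested. No label says that the libraries of a group came from separate cultures, so p values measure the spread between libraries, and fewer cells of a kind cannot be told apart from less RNA per cell.

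**Figure D1:**
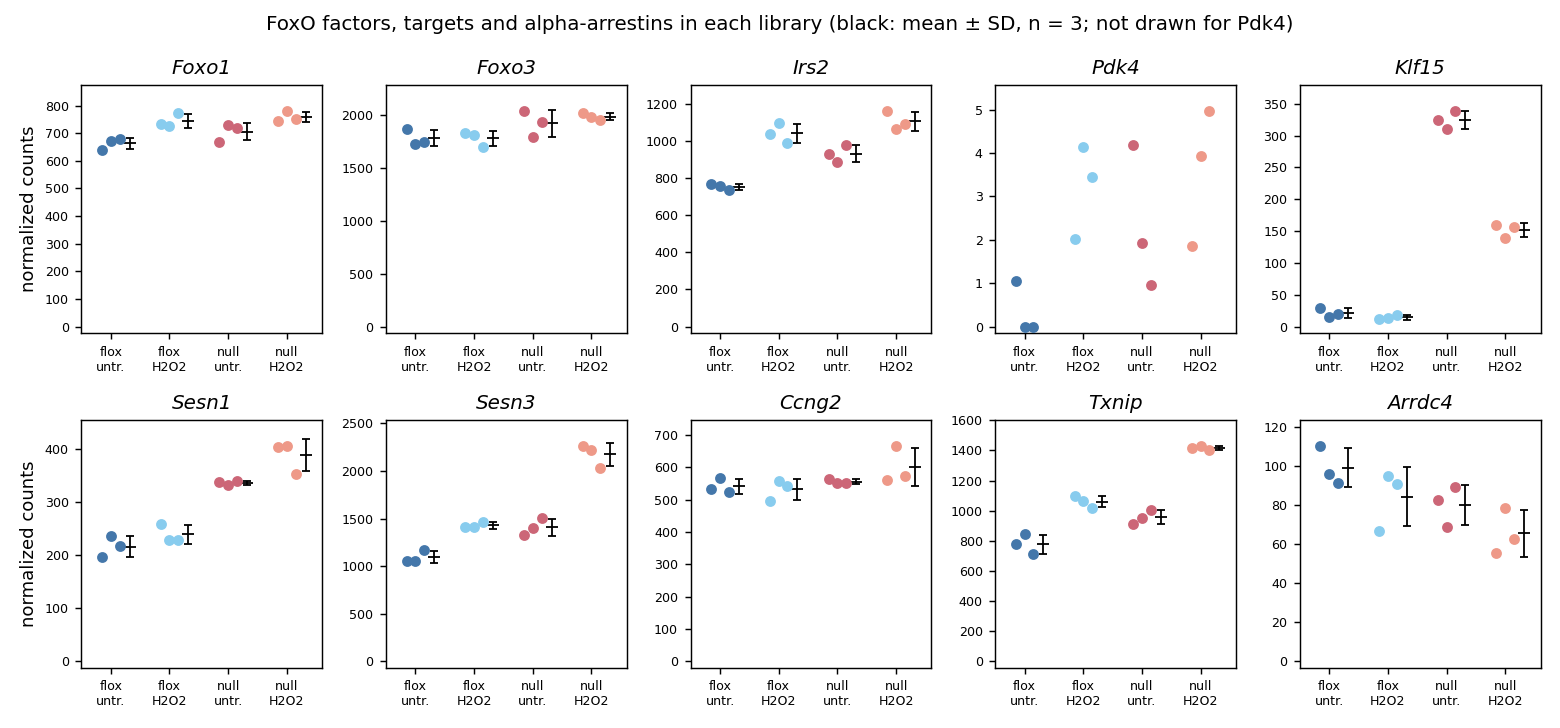
Normalized counts (linear axis) of the 10 genes in each of the 12 libraries, by group, with the mean and SD of 3 libraries in black (not drawn for Pdk4). Irs2, Sesn3 and Txnip are higher in all treated than in all untreated libraries of the same genotype, and Klf15 is between 311 and 339 in untreated TβRII-/- cells and below 30 in flox/flox cells.

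Foxo1, on chromosome 3 (52268337-52350109, + strand, GRCm38.p6), encodes a FoxO factor that also regulates genes of glucose production. Its normalized counts were 640, 670 and 680 in untreated and 732, 727 and 772 in H2O2-treated flox/flox cells. Foxo1 had 669, 728 and 717 normalized counts in untreated TβRII-/- cells and 744, 781 and 752 with H2O2. The treated libraries lay above the untreated ones in both genotypes. The rise passed the test in flox/flox cells (log2 fold change 0.17 ± 0.0669 SE, adjusted p = 0.0462 in edgeR) and the value in TβRII-/- cells did not (0.11 ± 0.0651, adjusted p = 0.199). The call in flox/flox cells was lost in 10 of 15 alternatives, with the adjusted p between 0.0293 and 0.118, among them each fit without a library of this comparison except untreated replicate 3.

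Foxo3, on chromosome 10 (42181845-42276695, - strand), encodes the FoxO factor best known for stress resistance and autophagy genes. It had 1869, 1726 and 1746 normalized counts in untreated and 1830, 1808 and 1698 in H2O2-treated flox/flox cells. Foxo3 had 2038, 1787 and 1932 normalized counts in untreated TβRII-/- cells and 2020, 1984 and 1948 with H2O2. Treated and untreated libraries overlapped in both genotypes. The 95% interval of the log2 fold change ran from -0.12 to 0.12 in flox/flox cells and from -0.07 to 0.17 in TβRII-/- cells. Between genotypes, Foxo3 was higher in H2O2-treated TβRII-/- cells (log2 fold change 0.16 ± 0.0599, adjusted p = 0.0217). This call was lost without any 1 of the 3 treated flox/flox libraries or without replicate 1 or 2 of the treated TβRII-/- cells, with adjusted p values between 0.051 and 0.262, and also with the second most counted transcript (adjusted p = 0.162) and with counts summed over transcripts (adjusted p = 0.234).

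Irs2, on chromosome 8 (10984681-11008929, - strand), encodes the adaptor that couples the insulin receptor to PI3-kinase. Its normalized counts were 768, 756 and 737 in untreated and 1039, 1094 and 991 in H2O2-treated flox/flox cells. Irs2 had 932, 886 and 975 normalized counts in untreated TβRII-/- cells and 1162, 1064 and 1090 with H2O2. No treated library overlapped an untreated one of its genotype, and untreated TβRII-/- cells lay above untreated flox/flox cells. Irs2 rose 1.38-fold in flox/flox cells (log2 fold change 0.47 ± 0.0656, adjusted p = 9.55e-07) and 1.19-fold in TβRII-/- cells (0.25 ± 0.0631, adjusted p = 0.0023). The difference of these responses did not pass over all genes (log2 difference -0.22 ± 0.091, unadjusted p = 0.0213, adjusted p = 0.124 in edgeR). TβRII-/- cells held 1.24-fold more Irs2 than flox/flox cells untreated (adjusted p = 0.000151), whereas with H2O2 the genotypes overlapped (1.06-fold, 95% interval of the log2 fold change -0.04 to 0.21, adjusted p = 0.239).

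Pdk4, on chromosome 6 (5483351-5496278, - strand), encodes the kinase that shuts off pyruvate dehydrogenase during fasting and is among the best known FoxO targets. It had 1, 0 and 0 counts before normalization in untreated and 2, 4 and 3 in H2O2-treated flox/flox cells. Pdk4 had 4, 2 and 1 counts in untreated TβRII-/- cells and 2, 5 and 5 with H2O2. The groups of flox/flox cells did not overlap and those of TβRII-/- cells did. The depth-corrected ratio of summed counts, treated to untreated, was 8.85 in flox/flox cells (9 counts against 1, exact 95% interval 1.23 to 388) and 1.55 in TβRII-/- cells (12 against 7, 0.562 to 4.64). These intervals cover counting error only, and at this depth no difference of Pdk4 between groups was tested.

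Klf15, on chromosome 6 (90461043-90491803, + strand), encodes a factor of amino acid catabolism and gluconeogenesis that fasting and glucocorticoids induce. It had 29.5, 14.5 and 20.4 normalized counts in untreated and 11.2, 13.4 and 18.3 in H2O2-treated flox/flox cells. Klf15 had 325, 311 and 339 normalized counts in untreated TβRII-/- cells and 159, 138 and 157 with H2O2. Every TβRII-/- library lay above every flox/flox library, and in TβRII-/- cells all treated libraries lay below all untreated ones. Klf15 fell by 1.11 on the log2 scale in TβRII-/- cells (SE 0.117, adjusted p = 5.35e-09). In flox/flox cells, where it had 11 to 28 counts before normalization, its log2 fold change was -0.60 ± 0.303 (adjusted p = 0.111). That value passed in 2 of 15 alternatives, without untreated replicate 2 (-0.81, adjusted p = 0.041) and with counts summed over transcripts (adjusted p = 0.0371). The responses of the genotypes were not shown to differ (log2 difference -0.50, 95% interval -1.19 to 0.18, adjusted p = 0.385). Klf15 was 15-fold higher in untreated TβRII-/- cells than in untreated flox/flox cells (log2 fold change 3.91 ± 0.169, adjusted p = 1.34e-19) and 10.6-fold higher with H2O2 (3.40 ± 0.202, adjusted p = 5.6e-16).

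Of 6 reported Klf15 targets, 4 were tested and 1 rose and 1 fell in each genotype. Over all genes tested, 21% rose and 20.5% fell in flox/flox cells, and 20.5% rose and 19.1% fell in TβRII-/- cells. Prodh, which encodes the proline dehydrogenase of mitochondria, was also highest in untreated TβRII-/- cells. Its normalized counts were 61.0, 61.2 and 60.2 in untreated and 36.5, 53.7 and 36.7 in H2O2-treated flox/flox cells. Prodh had 641, 596 and 651 normalized counts in untreated TβRII-/- cells and 297, 323 and 342 with H2O2. Treated libraries lay below untreated ones in both genotypes. Prodh fell by 0.52 on the log2 scale in flox/flox cells (SE 0.177, adjusted p = 0.0187) and by 0.97 in TβRII-/- cells (SE 0.0866, adjusted p = 1.53e-10), and it was 10.3-fold higher in untreated TβRII-/- than flox/flox cells (adjusted p = 1.94e-22). The call in flox/flox cells was lost without replicate 1 or 3 of the treated libraries. Gpt, an alanine aminotransferase, rose in flox/flox cells (log2 fold change 0.42, adjusted p = 0.0159), a call lost without untreated replicate 3 or treated replicate 2 (adjusted p up to 0.105). Bckdha, of branched-chain amino acid breakdown, rose in TβRII-/- cells (0.41, adjusted p = 0.000169).

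Genes that glucocorticoids induce were read beside Klf15. Of 8 such genes, 7 fell and 0 rose in each genotype, beside 20.5% and 19.1% of all genes that fell in flox/flox and TβRII-/- cells. The median log2 fold change was -1.35 in flox/flox and -1.11 in TβRII-/- cells. Tsc22d3, a glucocorticoid-induced leucine zipper protein, went from 1164 ± 60.9 to 345 ± 44.8 normalized counts in flox/flox cells and from 1399 ± 15.6 to 436 ± 14.01 in TβRII-/- cells (SD, n = 3). Zbtb16 fell by 3.89 and by 2.08 on the log2 scale, and the circadian gene Per1 fell by 1.75 and by 1.54, with the value of flox/flox cells given before that of TβRII-/- cells here and in the related lists. Complete medium held hydrocortisone, and the part of these genes in the Klf15 values was not tested.

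**Figure D2:**
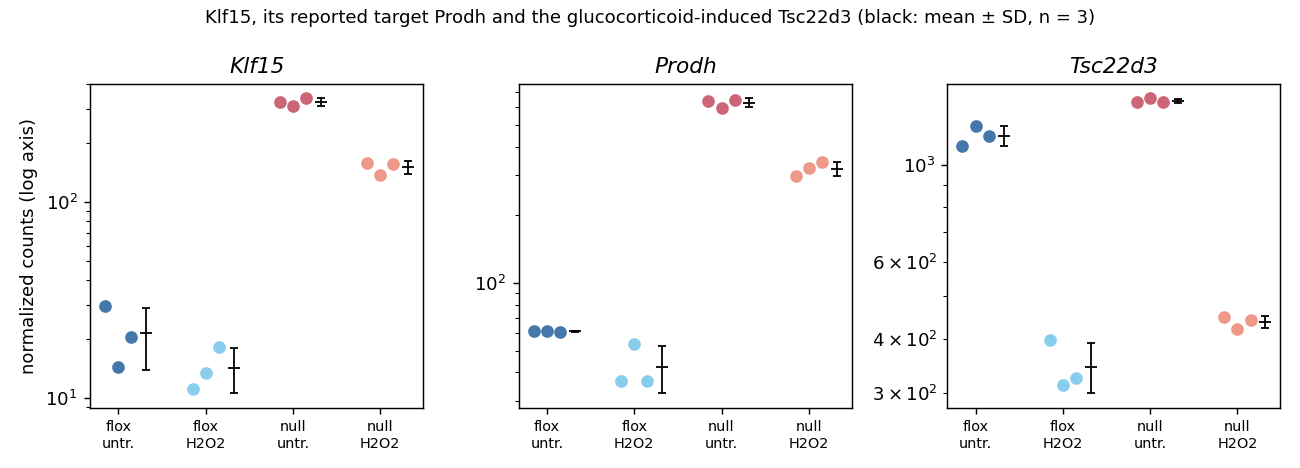
Normalized counts (log axis) of Klf15, Prodh and Tsc22d3 in each of the 12 libraries, with the mean and SD of 3 libraries in black. Klf15 and Prodh are more than 10-fold higher in untreated TβRII-/- than in untreated flox/flox cells, while untreated levels of Tsc22d3 are nearer, 1399 and 1164. Klf15, Prodh and Tsc22d3 fall with H2O2 in TβRII-/- cells, and Prodh and Tsc22d3 also in flox/flox cells. None of these responses was shown to differ between genotypes.

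Sesn3, on chromosome 9 (14276301-14326134, + strand), encodes a sestrin, a protein that restrains mTOR signalling when amino acids or growth factors are scarce. It had 1057, 1058 and 1167 normalized counts in untreated and 1406, 1409 and 1467 in H2O2-treated flox/flox cells. Sesn3 had 1325, 1399 and 1501 normalized counts in untreated TβRII-/- cells and 2266, 2222 and 2036 with H2O2. Treated libraries lay above untreated ones in both genotypes, and TβRII-/- libraries above flox/flox libraries in both conditions. Sesn3 rose 1.3-fold in flox/flox cells (log2 fold change 0.38 ± 0.0648, adjusted p = 1.76e-05) and 1.54-fold in TβRII-/- cells (0.63 ± 0.0619, adjusted p = 1.38e-09). The second most counted transcript of Sesn3 gave a log2 fold change of 0.22 in flox/flox cells, with an adjusted p of 0.0646. The difference of the responses was 0.24 ± 0.0895 on the log2 scale (unadjusted p = 0.0105, adjusted p = 0.0792). It passed when scaled by library size only (0.30, adjusted p = 0.0318), and without untreated replicate 3 (0.29, adjusted p = 0.0448) or treated replicate 3 (0.29, adjusted p = 0.0479) of the TβRII-/- cells. Between genotypes Sesn3 was 1.29-fold higher in untreated (adjusted p = 1.05e-05) and 1.52-fold higher in H2O2-treated TβRII-/- cells (adjusted p = 3.14e-10).

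Sesn1, on chromosome 10 (41810574-41908436, + strand), encodes a sestrin that is also a target of p53. Its normalized counts were 197, 236 and 217 in untreated and 260, 229 and 229 in H2O2-treated flox/flox cells. Sesn1 had 338, 333 and 340 normalized counts in untreated TβRII-/- cells and 405, 407 and 354 with H2O2. The groups of flox/flox cells overlapped, and the treated TβRII-/- libraries lay above the untreated ones. Neither response passed the test, at a log2 fold change of 0.15 ± 0.101 (adjusted p = 0.251) in flox/flox cells and 0.21 ± 0.0871 (adjusted p = 0.0548) in TβRII-/- cells. The latter value passed in 4 of 15 alternatives, without treated replicate 3 among them (0.27, adjusted p = 0.0276). Sesn1 was 1.56-fold higher in untreated (adjusted p = 7.24e-07) and 1.63-fold higher in H2O2-treated TβRII-/- cells (adjusted p = 5.56e-08) than in flox/flox cells of the same condition.

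Ccng2, on chromosome 5 (93267573-93276231, + strand), encodes an unconventional cyclin that slows the cell cycle. It had 532, 566 and 525 normalized counts in untreated and 496, 559 and 541 in H2O2-treated flox/flox cells. Ccng2 had 564, 551 and 552 normalized counts in untreated TβRII-/- cells and 560, 668 and 574 with H2O2. Treated and untreated libraries overlapped in both genotypes, and the 95% interval of the log2 fold change was -0.18 to 0.13 in flox/flox cells and -0.04 to 0.27 in TβRII-/- cells. With H2O2, Ccng2 was 1.13-fold higher in TβRII-/- cells (log2 fold change 0.18 ± 0.0759, adjusted p = 0.0384). That call was lost without any 1 of the treated flox/flox libraries or without treated replicate 2 of the TβRII-/- cells (adjusted p between 0.0553 and 0.335). It was also lost with the second most counted transcript (0.17, adjusted p = 0.0614), with counts summed over transcripts (0.13, adjusted p = 0.143), with DESeq2 size factors (adjusted p = 0.057) and in DESeq2 (adjusted p = 0.0859). The counted transcript is annotated as a retained intron, with 6723 counts over all libraries beside 6421 for the next, protein-coding one.

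Txnip, on chromosome 3 (96557957-96561857, + strand), encodes the α-arrestin that binds thioredoxin and takes glucose transporters off the cell surface. It had 776, 842 and 714 normalized counts in untreated and 1095, 1065 and 1020 in H2O2-treated flox/flox cells. Txnip had 915, 954 and 1003 normalized counts in untreated TβRII-/- cells and 1415, 1433 and 1402 with H2O2. No libraries of different groups overlapped within a genotype or within a condition, with the highest values in treated TβRII-/- cells. Txnip rose 1.36-fold in flox/flox cells (log2 fold change 0.45 ± 0.0667, adjusted p = 2.55e-06) and 1.48-fold in TβRII-/- cells (0.57 ± 0.0635, adjusted p = 1.8e-08), and the difference of these responses was not shown (0.12, 95% interval -0.07 to 0.30, adjusted p = 0.478). It was 1.23-fold higher in untreated (adjusted p = 0.000218) and 1.34-fold higher in H2O2-treated TβRII-/- cells (adjusted p = 7.79e-07). Both responses of Txnip passed in each of 15 alternatives.

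Arrdc4, on chromosome 7 (68736994-68749238, - strand), encodes the α-arrestin most like Txnip in its induction by glucose. Its normalized counts were 110, 95.7 and 91.4 in untreated and 67.0, 95.03 and 90.5 in H2O2-treated flox/flox cells. Arrdc4 had 82.6, 68.7 and 89.0 normalized counts in untreated TβRII-/- cells and 55.4, 78.6 and 62.6 with H2O2. Treated and untreated libraries overlapped in both genotypes. The log2 fold change was -0.24 ± 0.171 in flox/flox cells (95% interval -0.59 to 0.11, adjusted p = 0.269) and -0.28 ± 0.176 in TβRII-/- cells (-0.64 to 0.08, adjusted p = 0.216). Thus, the intervals of the Arrdc4 response lay below those of Txnip, which ran from 0.31 to 0.58 and from 0.44 to 0.69, though the difference between these genes was not tested. The second most counted transcript of Arrdc4 had a log2 fold change of -0.76 in TβRII-/- cells (adjusted p = 0.038) on 332 counts over all libraries. Between H2O2-treated genotypes Arrdc4 had a log2 fold change of -0.35 (adjusted p = 0.0845), which passed without treated replicate 1 of flox/flox cells (-0.52, adjusted p = 0.0159) or treated replicate 2 of TβRII-/- cells (-0.51, adjusted p = 0.0276), with counts summed over transcripts (-0.51, adjusted p = 0.0334) and with the second most counted transcript (-0.89, adjusted p = 0.00819).

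**Figure D3:**
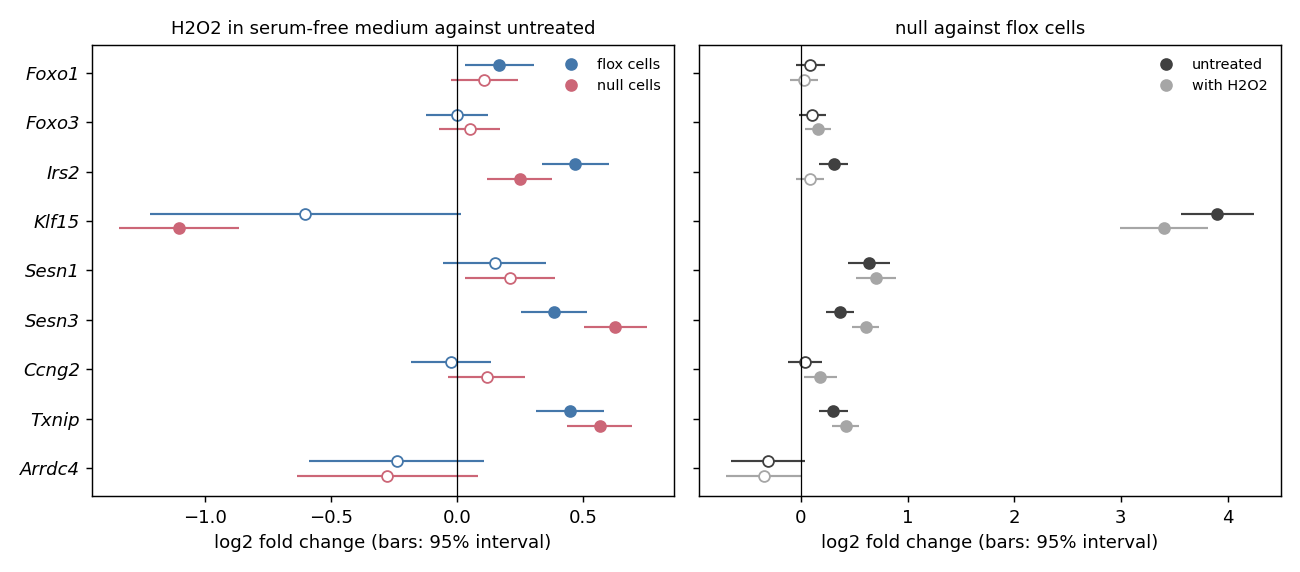
Log2 fold changes of the 9 tested genes with 95% intervals, for H2O2 in serum-free medium against untreated in each genotype (left) and for TβRII-/- (null) against flox/flox cells in each condition (right). Filled points passed an adjusted p of 0.05 in edgeR. Irs2, Sesn3 and Txnip are filled in both genotypes, and Klf15 stands apart on the right at 3.91 and 3.40.

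To ask whether the responses differed between genotypes, the difference of the H2O2 effects was tested for each gene. Of the 9 genes, 0 passed in edgeR and 0 in DESeq2, and 2 had an unadjusted p under 0.05 in each of the tools, in edgeR Irs2 and Sesn3. Over all genes tested, 10.2% passed (3.9% higher and 6.28% lower in TβRII-/- cells), and with a fold of at least 1.5, which 0 of the 9 reached, 2.36% did (0.64% higher, 1.72% lower). Between genotypes, 5 of the 9 genes were higher and 0 lower in untreated TβRII-/- cells (Irs2, Klf15, Sesn1, Sesn3 and Txnip), beside 64.7% of all genes that passed (33.3% higher, 31.4% lower). With H2O2, 6 were higher and 0 lower (Foxo3, Klf15, Sesn1, Sesn3, Ccng2 and Txnip), beside 66.4% of all genes (35.1% higher, 31.3% lower). The count with H2O2 was 4 without treated replicate 2 or 3 of the flox/flox cells. With a fold of at least 1.5, Klf15 and Sesn1 passed untreated (28% of all genes, 16.3% higher and 11.8% lower), and these and Sesn3 passed with H2O2 (30.7% of all genes, 17.3% higher and 13.4% lower). Comparisons of genotypes use the same libraries as those of H2O2, so their values are given side by side and were not set against each other.

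Levels were compared between genes as CPM (depth-scaled counts) per kb of transcript. Txnip had the highest level in every group, at 15.8 ± 1.31 and 21.6 ± 0.766 in untreated and H2O2-treated flox/flox cells and 19.5 ± 0.900 and 28.8 ± 0.310 in TβRII-/- cells (SD, n = 3). Foxo3 came next, between 14.95 and 16.7, followed by Sesn3, between 6.91 and 13.7. In untreated flox/flox cells the libraries of Txnip overlapped those of Foxo3, and those of Sesn3 overlapped Ccng2 (6.91 and 6.87). Irs2 and Ccng2 overlapped in both groups of TβRII-/- cells, and Ccng2 and Klf15 in the untreated one (7.06 and 6.94). Klf15 was at 0.458 in untreated flox/flox cells, below Arrdc4 at 1.46, and Pdk4 had the lowest level in each group, at most 0.0549. Transcript lengths came from another annotation release than the counts, and Klf15 transcripts of 1545 to 5080 bases shared most of their counts. The Ccng2 transcript used has 4537 bases, and its next, protein-coding one has 2582 bases with nearly as many counts (6421 beside 6723). By that shorter length the level of Ccng2 would be higher, so its place beside Sesn3, Irs2 and Klf15 depends on the transcript chosen. These points limit the order. With counts summed over transcripts, 3 to 5 of the 10 genes kept their place.

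**Figure D4:**
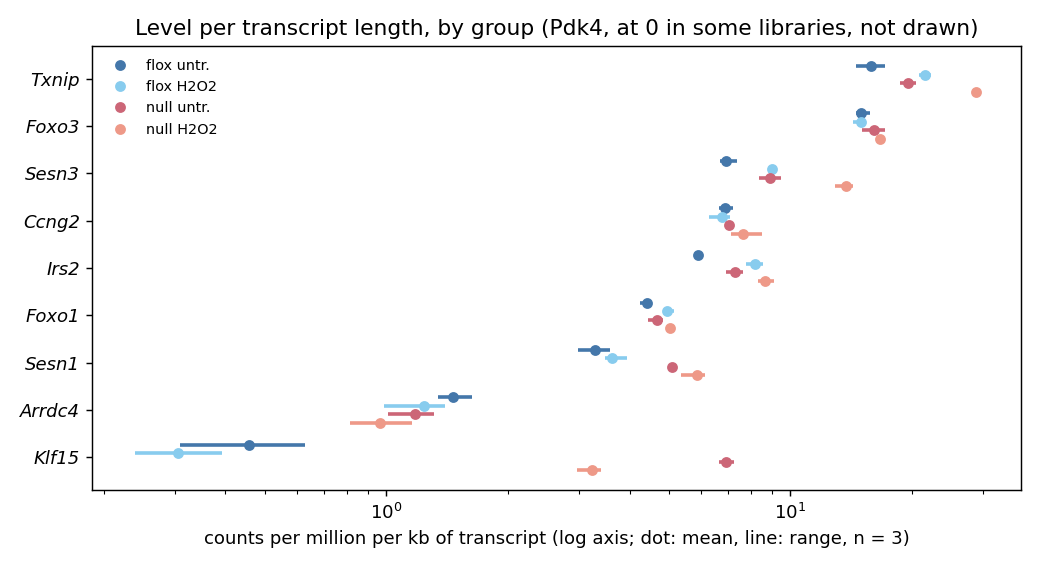
CPM per kb of transcript (log axis) for 9 genes in the 4 groups, with the mean as a dot and the range of 3 libraries as a line. Txnip is highest in every group, and Klf15 is the gene whose groups lie farthest apart, from 0.306 to 6.94.

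Other reported FoxO targets were read from a list of 27 genes, of which 21 were tested. Beside the counts of this list and all later lists, 21% of all genes tested rose and 20.5% fell in flox/flox cells. For TβRII-/- cells these shares were 20.5% and 19.1%. In flox/flox cells 4 rose and 5 fell, with a median log2 fold change of -0.03. In TβRII-/- cells 14 rose and 3 fell, with a median of 0.30, and 2 fell without treated replicate 3 of these cells. The difference of the responses passed for 9 of the 21 genes, all more positive in TβRII-/- cells, beside 3.9% of all genes. That count was 4 at the lowest among the alternatives. It fell by over 1.5 times without untreated replicate 2 or treated replicate 2 or 3 of the flox/flox cells. The same held without untreated replicate 1 or treated replicate 1 or 2 of the TβRII-/- cells. It also fell as far with the second most counted transcript and with counts summed over transcripts. With summed counts 1 gene of the list passed as more negative in TβRII-/- cells. Pik3ip1, which inhibits PI3-kinase, rose 2.21-fold in flox/flox cells (adjusted p = 5.57e-07) and 2.78-fold in TβRII-/- cells (adjusted p = 8.19e-09). Its normalized counts went from 70.5 ± 9.33 to 155 ± 21.9 and from 52.3 ± 11.1 to 145 ± 3.69 (SD, n = 3). Eif4ebp1, a repressor of translation, fell by 0.72 and by 0.77 on the log2 scale, and Bnip3, a mitophagy receptor, by 0.73 and by 0.45. Cited2, a transcriptional coregulator, fell by 0.42 in flox/flox cells and rose by 0.20 in TβRII-/- cells, with a log2 difference of 0.62 ± 0.0805 (adjusted p = 3.35e-06). Mxi1, an antagonist of Myc, had a log2 fold change of 0.12 in flox/flox cells (adjusted p = 0.213) and rose by 0.48 in TβRII-/- cells (adjusted p = 4.39e-07). Fbxo32, the ubiquitin ligase atrogin, rose in TβRII-/- cells from 10.2 ± 2.36 to 19.8 ± 1.93 normalized counts (adjusted p = 0.0261) and went from 15.8 ± 2.46 to 16.7 ± 1.47 in flox/flox cells (adjusted p = 0.885). The call of Fbxo32 was lost in 7 of 14 alternatives (adjusted p up to 0.116), among them those without untreated replicate 1 or 2 or treated replicate 1 or 3 of the TβRII-/- cells.

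Of 28 genes from the insulin receptor to Akt and mTOR, 5 rose and 10 fell in flox/flox cells and 12 rose and 6 fell in TβRII-/- cells, with medians of -0.02 and 0.10, and 4 fell in TβRII-/- cells without their untreated replicate 1 or treated replicate 2. Insr, the insulin receptor, rose by 0.30 and by 0.37 on the log2 scale (adjusted p = 0.00142 and 0.00022), and Grb10, which inhibits it, fell by 0.65 and by 0.39. With the second most counted transcript Insr did not pass in flox/flox cells (adjusted p = 0.0939). Irs1 rose by 0.39 in TβRII-/- cells and had a log2 fold change of 0.08 in flox/flox cells (adjusted p = 0.334). Sgk1, a kinase related to Akt that also phosphorylates FoxO factors and is induced by serum and glucocorticoids, fell from 679 ± 33.0 to 179 ± 21.3 normalized counts in flox/flox cells and from 1342 ± 33.8 to 165 ± 11.4 in TβRII-/- cells (SD, n = 3). The fall of Sgk1 was larger in TβRII-/- cells by 1.10 on the log2 scale (SE 0.123, log2 difference -1.10, adjusted p = 2.93e-07), and the treated genotypes did not differ past the threshold (-0.12, adjusted p = 0.307). Deptor, an inhibitor of mTOR, fell by 0.58 in flox/flox cells and rose by 0.36 in TβRII-/- cells. The former call was lost with the second most counted transcript (adjusted p = 0.0688) and the latter without untreated replicate 2 or treated replicate 3 (adjusted p up to 0.0709).

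Of 10 other FoxO factors and regulators of FoxO, 1 rose and 2 fell in flox/flox cells and 3 rose and 2 fell in TβRII-/- cells. These counts were not stable: without each library in turn and in the other alternatives, 0 to 3 rose and 1 to 2 fell in flox/flox cells, and 1 to 3 rose and 2 to 4 fell in TβRII-/- cells. They moved by over 1.5 times without untreated replicate 1 or 3 or any treated replicate of flox/flox cells, and without any untreated replicate or treated replicate 1 or 2 of TβRII-/- cells. The coactivator Ep300 rose by 0.31 in TβRII-/- cells (adjusted p = 0.000497) and had a value of 0.16 in flox/flox cells (adjusted p = 0.0591), and it did not pass in TβRII-/- cells with the second most counted transcript (adjusted p = 0.068). Its relative Crebbp rose by 0.20 and by 0.31, the former a call lost without untreated replicate 3 or treated replicate 2 (adjusted p up to 0.0717). Foxo4, another FoxO factor, rose by 0.23 in TβRII-/- cells (adjusted p = 0.039), a call lost in 8 of 15 alternatives (adjusted p up to 0.47), and had a value of -0.07 in flox/flox cells (adjusted p = 0.566). The kinase Stk4 fell by 0.28 and by 0.26, and the ubiquitin ligase subunit Skp2 fell by 0.17 and by 0.25. The call of Skp2 in flox/flox cells was lost in 7 of 15 alternatives (adjusted p up to 0.172).

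A list of 11 genes read beside the sestrins held Sesn2, Castor1, Castor2 and subunits of the GATOR1 and GATOR2 complexes. Of these, 0 rose in either genotype, and 2 fell in flox/flox and 4 in TβRII-/- cells, led by the arginine sensor homologue Castor2 (-0.94 and -0.68). The count of 4 was 1 at the lowest and fell by over 1.5 times without untreated replicate 1 or 2 or treated replicate 2 or 3 of the TβRII-/- cells and by library size only, where 3 rose. Without untreated replicate 1 of the flox/flox cells 1 rose there. Sec13, a subunit of GATOR2, fell by 0.28 in flox/flox cells and had a value of -0.17 in TβRII-/- cells (adjusted p = 0.0326), which missed the threshold in 8 of 15 alternatives, among them those without any 1 library of the comparison. Mios, of the same complex, had values of 0.09 (adjusted p = 0.384) and -0.21 (adjusted p = 0.0357), and the latter missed the threshold in 9 of 15 (adjusted p up to 0.595).

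Genes around Txnip were read in the same way. Mlx, the partner of MondoA, had log2 fold changes of -0.06 and -0.08 (adjusted p = 0.593 and 0.459), and Mlxip, which encodes MondoA, fell by 0.26 in flox/flox cells (adjusted p = 0.00374) and had a value of -0.02 in TβRII-/- cells (adjusted p = 0.826). Mlxipl, which encodes the related factor ChREBP, had 2.16 ± 0.0613 normalized counts in untreated flox/flox cells and 107 ± 17.6 in untreated TβRII-/- cells (SD, n = 3, adjusted p = 2.37e-15). With H2O2 Mlxipl rose by 0.41 on the log2 scale in TβRII-/- cells (adjusted p = 0.0356), a call lost in 7 of 14 alternatives (adjusted p up to 0.208). In flox/flox cells, at these low counts, its value was 1.15 (adjusted p = 0.187). Of the other α-arrestins, Arrdc2 rose 1.71-fold and 1.65-fold, Arrdc3 fell by 0.57 and by 0.34 on the log2 scale, Arrdc1 had values of -0.17 (adjusted p = 0.131) and -0.22 (adjusted p = 0.0223, lost without untreated replicate 2 or treated replicate 2 or 3 and by library size only), and Arrdc5 did not pass the filter on low counts. In the thioredoxin system Txn1, the protein that Txnip binds, fell by 0.56 and by 0.54, Txn2 by 0.43 and by 0.30 and Txnrd1 by 0.37 and by 0.47. Txnrd2 fell by 0.37 in TβRII-/- cells (adjusted p = 0.0424) and Txnrd3 rose by 0.31 in flox/flox cells (adjusted p = 0.0127). The former call was lost in 7 of 15 alternatives (adjusted p up to 0.158), among them those without replicate 1 or 3 of either TβRII-/- group, and the latter without replicate 1 of either flox/flox group (adjusted p up to 0.0828). Among glucose transporters, Slc2a1 fell by 0.43 and by 0.54 and Slc2a2 by 1.06 and by 1.46, and Slc2a4 did not pass in either genotype. Slc2a3, with 23.8 ± 5.00 normalized counts in untreated TβRII-/- cells, had a value of -0.90 there (adjusted p = 0.0417), which missed the threshold in 9 of 14 alternatives (adjusted p up to 0.217), among them those without replicate 1 or 3 of either TβRII-/- group. Of 7 genes that control pyruvate dehydrogenase beside Pdk4, 1 rose and 4 fell in flox/flox cells and 2 rose and 4 fell in TβRII-/- cells. Of these falls 2 were left without treated replicate 3 of TβRII-/- cells. The count of falls in flox/flox cells also dropped by over 1.5 times without their treated replicate 2 and with the second most counted transcript. The phosphatase Pdp2 rose by 0.58 and by 0.29, the kinase Pdk1 fell by 0.67 and by 0.32, the enzyme subunit Pdha1 fell by 0.39 and by 0.31, and the kinase Pdk2 rose by 0.65 in TβRII-/- cells with a value of 0.12 in flox/flox cells (adjusted p = 0.404). Pdk3 fell by 0.29 in flox/flox cells, a call lost in 3 of 15 alternatives (adjusted p up to 0.219), without treated replicate 2 among them. Its value of -0.23 in TβRII-/- cells (adjusted p = 0.0464) missed the threshold in 10 of 15 alternatives (adjusted p up to 0.211).

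Genes of proliferation were read beside Ccng2 and the sestrins. Of 19 such genes, 1 rose and 10 fell in flox/flox cells (median log2 fold change -0.22), and 2 rose and 14 fell in TβRII-/- cells (median -0.54). The count of genes that rose was 1 to 2 and 1 to 3 among the alternatives, and moved without untreated replicate 1 of flox/flox cells and untreated replicate 2 of TβRII-/- cells. The difference of the responses passed as more negative in TβRII-/- cells for 10 of them and more positive for 1, beside 6.28% and 3.9% of all genes. The count of 10 was 5 at the lowest. It fell by over 1.5 times by library size only and without treated replicate 3 of the flox/flox cells. The same held without untreated replicate 2 or treated replicate 1 or 2 of the TβRII-/- cells. The mitotic genes Birc5 and Aurka fell by 0.40 and by 0.32 in flox/flox cells and by 0.74 and by 0.69 in TβRII-/- cells, and Cdc6, of replication licensing, rose by 0.25 and by 0.35. Aurkb, also of mitosis, fell by 0.68 in TβRII-/- cells and had a value of -0.16 in flox/flox cells (adjusted p = 0.0678). Mcm2, of the replicative helicase, rose by 0.23 in TβRII-/- cells, a call lost without untreated replicate 2 (adjusted p = 0.0552), and had a value of -0.10 in flox/flox cells (adjusted p = 0.219). Of the relatives of Ccng2, Ccng1 fell by 0.26 and by 0.36, and Ccni fell by 0.20 in flox/flox cells with a value of 0.07 in TβRII-/- cells (adjusted p = 0.370). The fall of Ccni was not called without untreated replicate 3 or treated replicate 2 (adjusted p up to 0.0685).

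**Figure D5:**
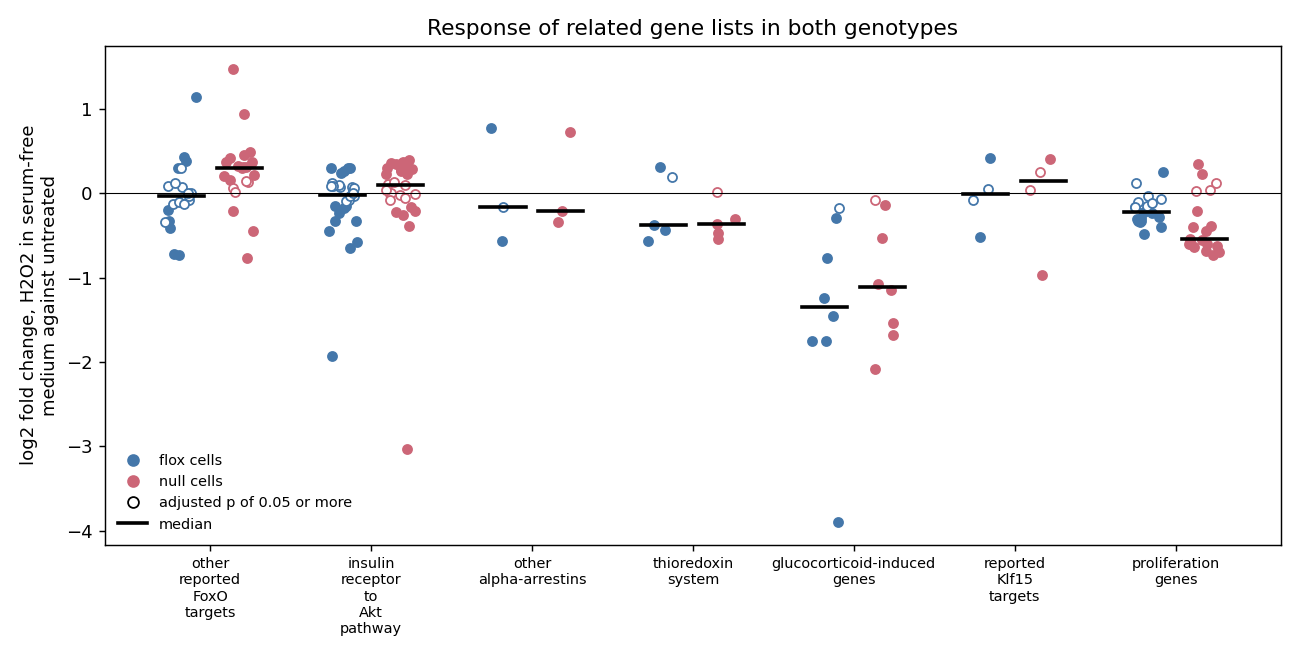
Log2 fold changes with H2O2 in serum-free medium for the tested genes of 7 lists, in flox/flox (blue) and TβRII-/- (red, null) cells. Each point is a gene, filled points passed an adjusted p of 0.05, and bars are medians, which lie at -0.03 and 0.30 for other reported FoxO targets and at -1.35 and -1.11 for glucocorticoid-induced genes.

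The genes most like each of the 9 in pattern were found by Pearson's r of log2 CPM over the 12 libraries, which fall into the 4 groups and share their group levels. Txnip was most like Rerg (r = 0.985), Capn6 (0.983) and Ctsa (0.981), and Sesn3 most like Aldh9a1 (0.985), Crebrf (0.982) and Csad (0.978). Klf15 was most like Egln3 (0.996), Stard13 (0.995) and Kmt5a (0.990), Irs2 like Nrp1 (0.975), Lpin1 (0.970) and Man1c1 (0.968), and Gsdme (0.988) and Kiz (0.987) were among the genes most like Sesn1. For Foxo1 the leading genes were mt-Nd2 (0.930), Zfp932 (0.916) and Pik3r3 (0.911), and for Foxo3 they were Stx2 (0.927), Urgcp (0.924) and Rgs12 (0.910). Arrdc4 and Ccng2 had no gene as near, with Grk6 (0.904), Gmpr2 (0.869) and Mthfd1l (0.856) for Arrdc4 and Nudt16l1 (0.806), Ambra1 (0.796) and Rabgap1l (0.789) for Ccng2.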

How the data were processed

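RNA was sequenced from 12 libraries of PT cells, 3 per group, with groups and replicate numbers from the sample labels. Replicate 3 of untreated flox/flox cells has a title abbreviated in another way, with the same genotype and medium. The authors trimmed reads with fastp, aligned them with STAR to GRCm38.p6 (GENCODE M23) and counted them with featureCounts, and they deposited raw counts per transcript, without normalization. A read can be counted on several transcripts of a gene, and summed transcripts came to 3.20 to 3.32 times the gene totals. Identifiers of 104820 among 106332 transcripts were found in GENCODE M39, and the other 1512 (1.22% to 1.28% of counts) were left out. For the 17419 genes with more than 1 transcript, the one with the highest total was used. The design had assumed gene counts. Genes sharing reads with near-identical or overlapping genes are uncertain.

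Counts were tested with edgeR 4.0.16 (R 4.3.3, TMM, filterByExpr, glmQLFit and glmQLFTest) with 1 mean per group fitted to the 12 libraries together. The standard error is the log2 fold change divided by the square root of F. DESeq2 1.42.0, other scalings and filters, other transcripts, a replicate block and leaving out each library were tried. The 10 genes, the 15 lists of other genes and the tests were chosen with earlier results of these data known. From each list up to 3 genes with the largest rise and 3 with the largest fall among those called in either genotype are named, and all genes of lists of 5 or fewer. The genes most like each were protein-coding with a mean of at least 10 normalized counts. A gene among them is not reported here. Each pair of replicates differed beyond sampling noise (chi-square per gene 3.64 to 12.7). The tests were tried on simulated counts. Promoters and coordinates are RefSeq's for GRCm38.p6, and no protein sequence was used here.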

Additional observations from a re-analysis of the deposited data

Results flagged for a closer look

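None of the 9 tested genes among the FoxO factors, their targets and the α-arrestins was flagged. Among the named genes of the related lists, 18 had responses to H2O2 in serum-free medium that differed between TβRII-/- and flox/flox cells by the test of the difference itself (edgeR, adjusted p under 0.05). The difference was more positive in TβRII-/- cells for the FoxO targets Mxi1 (log2 difference 0.36, adjusted p = 0.0213) and Cited2 (0.62, adjusted p = 3.35e-06), for Irs1 (0.32, adjusted p = 0.0179) and Deptor (0.94, adjusted p = 0.00136) of the insulin to mTOR pathway, and for the kinase Pdk2 (0.54, adjusted p = 0.0118). It was also more positive for Ccni (0.27, adjusted p = 0.0412), Zbtb16 (1.81, adjusted p = 4.32e-10), Mcm2 (0.33, adjusted p = 0.0172) and Ccnd1 (0.59, adjusted p = 6.03e-05). It was more negative for Sgk1 (-1.10, adjusted p = 2.93e-07), Pdp2 (-0.29, adjusted p = 0.0337), Birc5 (-0.34, adjusted p = 0.0184), Aurka (-0.37, adjusted p = 0.00426) and Aurkb (-0.52, adjusted p = 0.000987). The same held for Egr1 (-0.42, adjusted p = 0.00184), Phlda1 (-0.43, adjusted p = 0.00632), Slc7a11 (-0.47, adjusted p = 0.0273) and Srxn1 (-0.38, adjusted p = 0.00501). Over all genes tested, 10.2% passed this test. Most named genes were picked for a large H2O2 effect in either genotype, which favours such differences. The count of 18 therefore cannot be set against that share. Of 20 alternatives, the call was lost in 13 for Ccni (adjusted p up to 0.156), 9 for Pdp2, 7 for Slc7a11 (adjusted p up to 0.447), 6 for Irs1, 6 for Mcm2, 5 for Mxi1 and 4 for Birc5, in each case among them fits without a single library. It was lost in 1 for Pdk2 and 1 for Srxn1, with the second most counted transcript, and in none for Cited2, Deptor, Zbtb16, Ccnd1, Sgk1, Aurka, Aurkb, Egr1 and Phlda1.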

How the results depend on the processing

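Log2 fold changes of the 9 genes were recomputed 720 times over the 5 comparisons. Of these, 675 kept their side of the threshold, 26 lost and 19 gained a call, and 0 called values changed sign. At an unadjusted p under 0.01 with a fold of at least 1.5, 0 of the 9 genes and 981 of all genes passed with H2O2 in flox/flox cells, 2 and 1008 in TβRII-/- cells, 2 and 3507 between untreated genotypes, 3 and 3860 between treated ones, and 357 of all genes for the difference of the H2O2 effects. For that difference, scaling by library size only gave 1 of the 9 genes (Sesn3). Without each library in turn it gave 0 to 1 of the 9 and 833 to 1680 of all genes beside 1321, the lowest without treated replicate 1 of TβRII-/- cells and 878 without replicate 2. Between treated genotypes leaving out a library gave 4 to 6 of the 9. Scaling by library size moved the median log2 fold change of all genes by over 0.1 between treated genotypes, to 0.17, and to 0.10 between untreated ones. Signs turned for Slc7a11 between untreated genotypes with the second transcript (-0.30), and between treated genotypes by library size only for Skp2 (0.0029) and Aurka (0.15). The cause of these changes was not tested. By counts summed over transcripts, 3, 5, 4 and 5 of the 10 genes kept their place in the order of levels, in untreated and treated flox/flox and untreated and treated TβRII-/- cells.

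Libraries with the same replicate number did not deviate together (correlations -0.0705 to 0.0525 over 18 pairs, 0 over 0.1), so no pairing by number was seen. The labels do not say whether such libraries were handled together. With the replicate number as a block, 3 of the 9 genes were called in flox/flox cells, Foxo1 being lost (adjusted p = 0.0556), 4 in TβRII-/- cells, 0 for the difference, and 5 and 6 between untreated and treated genotypes, with 5235, 4981, 1202, 8287 and 8523 of all genes. Depth limits Pdk4 and, in flox/flox cells, Klf15.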

Other observations

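Genes that serum or growth factors induce in many cells did not move one way. Of 16 such genes, 6 rose and 3 fell with H2O2 in serum-free medium in flox/flox cells and 8 rose and 2 fell in TβRII-/- cells, with median log2 fold changes of 0.19 and 0.21. The immediate early gene Egr1 rose by 0.88 and by 0.46 and Egr2 by 1.18 and by 1.58, whereas the cyclin Ccnd1 fell by 1.51 and by 0.92 and Myc by 0.40 and by 0.20. The rise of Egr2 in flox/flox cells was not called without replicate 2 of either group (adjusted p up to 0.108). Phlda1 rose by 0.70 and by 0.27, the latter not called with the second most counted transcript (adjusted p = 0.482), and Srf fell by 0.25 in flox/flox cells with a value of -0.04 in TβRII-/- cells (adjusted p = 0.639). Of 6 targets of Nrf2, the factor of the antioxidant response, 2 rose and 4 fell in flox/flox cells and 1 rose and 4 fell in TβRII-/- cells. Gclc, of glutathione synthesis, fell by 1.63 and by 1.47, Srxn1 by 0.51 and by 0.88 and Gclm by 0.49 and by 0.21. Nqo1 rose by 0.51 in flox/flox cells, a call lost without untreated replicate 1 or treated replicate 1 or 2 (adjusted p up to 0.1). Its value of 0.24 in TβRII-/- cells (adjusted p = 0.0482) missed the threshold in 10 of 15 alternatives (adjusted p up to 0.21), among them those without untreated replicate 1 or 2 or any treated replicate, so the count of 1 that rose was then 0. The fall of Gclm in TβRII-/- cells was not called without treated replicate 1 or 3 (adjusted p up to 0.0539). Slc7a11, the cystine transporter, rose by 0.37 in flox/flox cells (adjusted p = 0.00412) and had a log2 fold change of -0.11 in TβRII-/- cells (adjusted p = 0.406, edgeR). The rise of Slc7a11 was not called with the second most counted transcript (adjusted p = 0.246).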
